A study of Mus musculus with 15 samples.

Results

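The data hold 10 genes that astrocytes are known to raise when the brain is injured, inflamed or laden with amyloid: Gfap, Vim, Serpina3n, Ggta1, Aspg, Cp, Steap4, Lcn2, Cd44 and S1pr3. They were picked by gene symbol from a table of 46078 genes, all 10 were found, and all 10 passed the filter on low counts that left 18974 genes for testing. Their levels were compared between brains of APP-PS1 mice treated with anti-CD8a antibody, of APP-PS1 mice given PBS, and of wild-type (WT) mice given PBS. Gfap, Ggta1 and Aspg were about 2-fold higher in both APP-PS1 groups than in WT mice. Serpina3n did not pass against WT mice, with an edgeR adjusted p of 0.119 under PBS and 0.0616 under antibody. None of the 10 genes passed the test between antibody-treated and PBS-treated APP-PS1 mice.

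Astrocytes are glial cells that feed neurons, clear glutamate and potassium, and wrap blood vessels and synapses. When they become reactive they thicken their intermediate filaments, secrete protease inhibitors and metal-binding proteins, and change their surface sugars and receptors. In mice, cytokines of the interleukin-6 family are known to bring on such states, and so are the microglial signals Il1a, Tnf and C1q. Those cytokines act through the transcription factor Stat3, and some of them use the receptor subunits Osmr and Lifr. Reactive astrocytes are known to gather around amyloid plaques.

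The mice were 12 months old and were treated for 4 weeks. APP-PS1 mice carry 2 transgenes, a mouse/human hybrid APP with the Swedish mutation and mutant human presenilin 1 (PS1-dE9), which a prion protein promoter drives in neurons of the central nervous system and which both APP-PS1 groups share. The first group was 5 APP-PS1 mice that received 10 intraperitoneal injections of 0.8 mg anti-CD8a antibody (clone 2.43), which binds a co-receptor of cytotoxic T cells. The second was 5 APP-PS1 mice given 100 µL PBS per injection, and the third was 5 WT mice given the same PBS. An isotype antibody is named in the treatment protocol and was not analysed here, so the antibody was compared with PBS only. Both sexes were used, with 2 females and 3 males by label in each APP-PS1 group and 4 females and 1 male among WT mice. Each library came from a brain region of 1 hemisphere of 1 mouse, and which region was not given in the sources used here.

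Assigned counts per library ranged from 17736524 to 36485809, so that 3 counts stood for 0.0822 to 0.169 CPM, the count scaled to library size, a floor that covers counting error only. App, the gene that 1 of the transgenes carries, was at 2470 to 3150 CPM in antibody-treated and 2420 to 3040 CPM in PBS-treated APP-PS1 mice, against 1230 to 1320 CPM in WT mice. Cd8a, the antibody's target, had 3 to 21 counts per library in antibody-treated APP-PS1 mice, 4 to 17 in PBS-treated APP-PS1 mice and 3 to 13 in WT mice, too few to check depletion. Xist and Y-linked genes matched the labelled sex in 14 of the 15 libraries, the exception being APP-PS1 PBS replicate 1. Ttr, which the choroid plexus makes in bulk, was at 1650 to 6470 CPM in 5 libraries (anti-CD8a replicate 1, APP-PS1 PBS replicates 2 and 5, WT replicates 3 and 5) and at 20.7 to 107 CPM in the others. The summed level of 20 genes that mark astrocytes, among them Aldh1l1, Slc1a2, Aqp4 and Gja1, was 11200 to 13200 CPM in antibody-treated APP-PS1, 11500 to 12800 CPM in PBS-treated APP-PS1 and 10700 to 12000 CPM in WT libraries, and none of the 20 was at 0 in all libraries.

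Gfap was by far the most abundant of the 10 genes. Per kilobase of exon it stood at 209 ± 59.2 CPM in antibody-treated APP-PS1, 198 ± 40.7 in PBS-treated APP-PS1 and 90.7 ± 8.42 in WT mice (SD, n = 5 each). On the same scale Serpina3n followed with 34.5, 33.3 and 25.4 CPM and Vim with 10.6, 11.9 and 9.51 CPM, in the same order of groups. Cp, Ggta1, S1pr3, Aspg and Cd44 lay between 0.996 and 4.47 CPM per kilobase in every group, and Lcn2 and Steap4 were below 0.5. Gfap alone made up 79.2 to 86.0% of the summed CPM of the 10 genes in antibody-treated APP-PS1 libraries, 75.7 to 84.0% in PBS-treated APP-PS1 libraries and 69.0 to 73.9% in WT libraries.

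**Figure D1:**
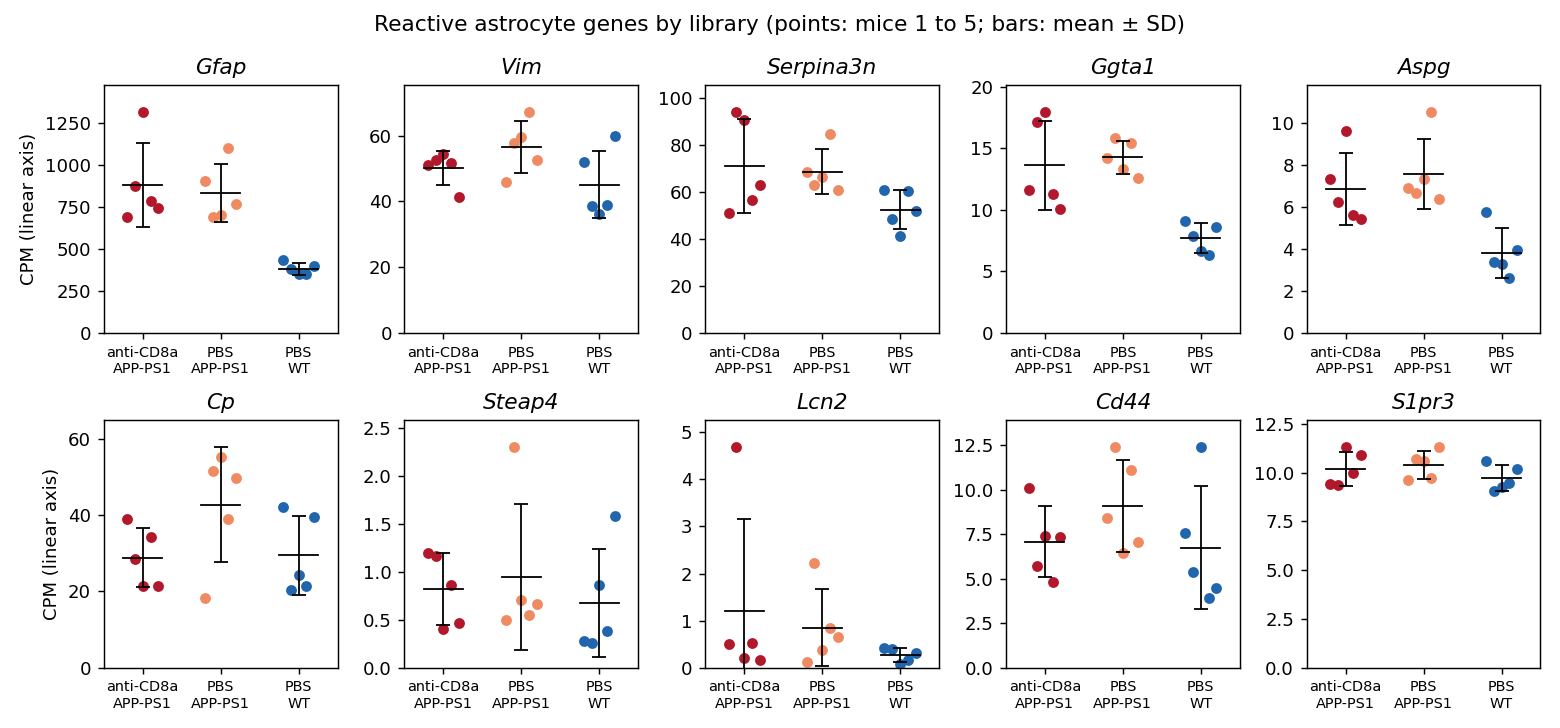
CPM of each of the 10 genes (vertical axes, linear, from 0) in the 3 groups (horizontal axes); points are mice 1 to 5 of a group from left to right, and bars show the mean ± SD. Gfap and Ggta1 in all APP-PS1 mice lie above all WT mice, and the points of both APP-PS1 groups overlap for every gene.

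The first comparison, of APP-PS1 with WT mice that all received PBS, asked how the transgenic brain differs without the antibody. Gfap, Ggta1 and Aspg rose, and every APP-PS1 mouse lay above every WT mouse in these genes and in Serpina3n. In edgeR's quasi-likelihood test 3 of the 10 genes passed an adjusted p of 0.05, all upward, whereas 1.03% of the 18974 genes tested passed, 0.938% upward and 0.0896% downward. Groups without overlap, with all APP-PS1 libraries higher, were found for 4 of the 10 genes and for 1.83% of all genes. The estimate was above 0 for all 10 genes and for 46.9% of all genes, and the median log2 fold change was 0.49 over the 10 genes and -0.01 over all genes. An unadjusted p under 0.05 was reached by 6 of the 10, all upward, and by 11.5% of all genes, of which those upward were 5.43% of all.

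Gfap (ENSMUSG00000020932, chromosome 11, 102887336 to 102900912, minus strand, GRCm38) encodes the main intermediate filament of astrocytes. It was at 902, 692, 704, 1100 and 767 CPM in the 5 PBS-treated APP-PS1 mice, against 434, 379, 348, 353 and 400 CPM in the 5 WT mice. The lowest APP-PS1 mouse was well above the highest WT mouse, and the WT mice were close to each other. The difference was 2.34-fold (log2 fold change 1.23, SE 0.14, 95% interval 0.92 to 1.53, edgeR adjusted p = 0.000292). In these bulk samples, more cells of a type and more RNA per cell cannot be told apart. Taken as a percentage of the summed astrocyte markers, Gfap was at 6.97 ± 1.17% in APP-PS1 and 3.39 ± 0.278% in WT mice (SD, n = 5 each). The lowest APP-PS1 mouse was at 5.96% and the highest WT mouse at 3.74%. The summed markers were at 11500 to 12800 CPM in APP-PS1 and 10700 to 12000 CPM in WT libraries. That spread was too small to close the gap in Gfap, so this scale could not have brought the groups together.

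Ggta1 (ENSMUSG00000035778, chromosome 2, 35400179 to 35463231, minus strand) encodes the enzyme that caps glycans with alpha-1,3-linked galactose, a sugar that humans lack. Its levels were 14.2, 15.8, 13.3, 15.4 and 12.6 CPM in PBS-treated APP-PS1 mice, against 9.13, 7.9, 6.64, 6.36 and 8.58 CPM in WT mice. The groups did not overlap, and the APP-PS1 mice varied little. Ggta1 was 1.95-fold higher (log2 fold change 0.96, SE 0.16, interval 0.63 to 1.29, edgeR adjusted p = 0.00458). Aspg (ENSMUSG00000037686, chromosome 12, 112106679 to 112127559, plus strand) encodes an asparaginase and was at 6.91, 6.68, 7.32, 10.5 and 6.40 CPM in APP-PS1 mice, against 5.78, 3.37, 3.29, 2.63 and 3.94 CPM in WT mice. The lowest APP-PS1 mouse was just above the highest WT mouse, and replicate 4 stood apart at the top of the APP-PS1 group. Aspg was 2.1-fold higher (log2 fold change 1.07, SE 0.21, interval 0.63 to 1.52, edgeR adjusted p = 0.0157). As percentages of the summed astrocyte markers, Ggta1 was at 0.120 ± 0.0112% in APP-PS1 and 0.0683 ± 0.0102% in WT mice, and Aspg at 0.0632 ± 0.0111% in APP-PS1 and 0.0335 ± 0.00955% in WT mice. Aspg did not pass without APP-PS1 PBS replicate 4 (0.91, adjusted p = 0.064) or without the 5 libraries rich in Ttr (1.39, adjusted p = 0.0579).

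Serpina3n (ENSMUSG00000021091, chromosome 12, 104406729 to 104414329, plus strand) encodes a secreted inhibitor of serine proteases and sits in a cluster of near-identical genes, among which reads can be shared. It took 94.4 to 98.4% of the counts of the 11 genes of this cluster. Its levels were 68.6, 62.9, 66.3, 84.8 and 61.1 CPM in PBS-treated APP-PS1 mice, against 60.9, 48.4, 41.3, 60.4 and 51.8 CPM in WT mice. The groups did not overlap in CPM, but the lowest APP-PS1 mouse and the highest WT mouse were almost level. As a percentage of the summed astrocyte markers the groups overlapped, with the lowest APP-PS1 mouse at 0.509% and the highest WT mouse at 0.526%. The log2 fold change was 0.52 (SE 0.14, interval 0.22 to 0.82), with an edgeR adjusted p of 0.119, so Serpina3n did not pass. It passed in DESeq2 (adjusted p = 0.0204), without a filter on low counts (0.021), without APP-PS1 PBS replicate 5 (0.0463) and without the 5 libraries rich in Ttr (0.0188).

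The stretches around the start sites of these 4 genes are shown because in them every PBS-treated APP-PS1 mouse lay above every WT mouse. They were searched for known motifs of the pathways named above. The sequences are from RefSeq (GRCm38.p6), run 5′ to 3′ along the gene from 250 bases before to 50 bases after the RefSeq start, which can differ from the gene's outer edge given above, and capitals mark matches on either strand to TTCNNNGAA (the STAT motif), TGANTCA (AP-1) or GGGA, 4 bases of any kind and CC (NF-kappaB).
Gfap, chr11:102897151-102897450, minus strand: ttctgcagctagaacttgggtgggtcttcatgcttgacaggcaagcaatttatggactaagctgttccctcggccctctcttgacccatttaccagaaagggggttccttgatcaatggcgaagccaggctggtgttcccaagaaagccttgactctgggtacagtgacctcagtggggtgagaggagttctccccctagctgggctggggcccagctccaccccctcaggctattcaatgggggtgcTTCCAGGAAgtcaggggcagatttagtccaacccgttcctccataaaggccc
Ggta1, chr2:35461400-35461699, minus strand: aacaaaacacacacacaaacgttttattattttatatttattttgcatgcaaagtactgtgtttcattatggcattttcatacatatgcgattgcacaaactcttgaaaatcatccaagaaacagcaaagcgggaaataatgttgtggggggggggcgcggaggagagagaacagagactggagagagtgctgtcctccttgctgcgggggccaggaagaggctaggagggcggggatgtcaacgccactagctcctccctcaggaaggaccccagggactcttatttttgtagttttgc
Aspg, chr12:112106433-112106732, plus strand: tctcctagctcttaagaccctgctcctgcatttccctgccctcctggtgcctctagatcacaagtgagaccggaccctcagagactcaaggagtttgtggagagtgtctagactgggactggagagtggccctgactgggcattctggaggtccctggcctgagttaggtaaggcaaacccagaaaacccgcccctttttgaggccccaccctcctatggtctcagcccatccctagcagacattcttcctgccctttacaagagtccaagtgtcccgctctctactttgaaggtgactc
Serpina3n, chr12:104406458-104406757, plus strand: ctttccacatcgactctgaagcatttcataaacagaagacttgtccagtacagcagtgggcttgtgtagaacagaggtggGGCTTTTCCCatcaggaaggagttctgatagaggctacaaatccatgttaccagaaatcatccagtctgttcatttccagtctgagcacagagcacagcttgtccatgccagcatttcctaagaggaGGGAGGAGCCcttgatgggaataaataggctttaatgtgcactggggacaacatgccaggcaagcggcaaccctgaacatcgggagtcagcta
The Gfap window held TTCCAGGAA, a match to the STAT motif that begins 2 bases before the start. The Serpina3n window held a pair of NF-kappaB matches, GGCTTTTCCC on the opposite strand and GGGAGGAGCC on the gene's strand, and the windows of Ggta1 and Aspg held none of these motifs. Over all 10 genes (11 windows, since Cp has 2) the STAT motif was in windows of 2 genes, Gfap and Steap4, the AP-1 motif in 1, Cp, and the NF-kappaB motif in 5, Vim, Serpina3n, Cp, Steap4 and S1pr3. Of 32817 windows of this length in the RefSeq table, 8.29% held the STAT, 7.81% the AP-1 and 20.7% the NF-kappaB motif. No match overlapped another in the printed windows, and a match describes letters only.

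The other 6 genes did not pass between PBS-treated APP-PS1 and WT mice. Vim (ENSMUSG00000026728, chromosome 2, 13573927 to 13582826), an intermediate filament that astrocytes share with endothelial, mural and other cells, was at 45.9, 57.8, 59.5, 67.0 and 52.6 CPM in APP-PS1 mice, against 52.0, 38.5, 36.3, 38.9 and 59.9 CPM in WT mice. WT replicates 1 and 5 reached into the APP-PS1 range, and the log2 fold change was 0.32 (SE 0.14, interval 0.02 to 0.61, edgeR adjusted p = 0.401). Cp (ENSMUSG00000003617, chromosome 3, 19957054 to 20009145), which encodes ceruloplasmin, a copper enzyme that oxidises iron for export, was at 18.2, 51.5, 55.3, 39.0 and 49.8 CPM in APP-PS1 mice, against 42.0, 20.4, 24.2, 21.5 and 39.4 CPM in WT mice. Mice differed more than 2-fold within each group, and the estimate of 0.45 had a wide interval (SE 0.28, -0.15 to 1.05, edgeR adjusted p = 0.563). Steap4 (ENSMUSG00000012428, chromosome 5, 7960457 to 7982213), a metalloreductase that reduces iron and copper, was sparse at 0.943 ± 0.761 CPM in APP-PS1 and 0.672 ± 0.562 CPM in WT mice (SD, n = 5 each), with an estimate of 0.15 (SE 0.51). By library it was at 0.496, 2.30, 0.711, 0.549 and 0.663 CPM in APP-PS1 mice, against 0.284, 0.254, 0.866, 0.381 and 1.58 CPM in WT mice. A single library led each group, APP-PS1 PBS replicate 2 and WT replicate 5, and both are among those rich in Ttr. The other Ttr-rich libraries of these groups, APP-PS1 PBS replicate 5 and WT replicate 3, were at 0.663 and 0.866 CPM. The part of choroid plexus tissue in Steap4 was not tested.

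Lcn2 (ENSMUSG00000026822, chromosome 2, 32384633 to 32388252), a secreted lipocalin that binds iron-carrying siderophores, had the widest interval of the 10 in this comparison. It had 4, 63, 9, 28 and 12 counts in the PBS-treated APP-PS1 libraries, against 13, 11, 3, 4 and 11 counts in the WT libraries. Most of the APP-PS1 counts came from replicates 2 and 4, and in CPM replicates 1 and 3 were inside the WT range (0.132 and 0.376 CPM in these replicates, against 0.0866 to 0.411 CPM in WT mice). The log2 fold change of 2.10 (SE 0.97, interval 0.05 to 4.16, edgeR adjusted p = 0.421) was 1.19 without APP-PS1 PBS replicate 2. Among 9 markers of neutrophils, which also make Lcn2, the summed level was 0.562 to 4.14 CPM in PBS-treated APP-PS1 and 0.722 to 2.28 CPM in WT libraries, with 0.883 CPM in the library highest in Lcn2, and their part in the result was not tested. None of these 9 markers was at 0 in all libraries, but only 3 passed the filter on low counts. Ly6g had 0 counts in every PBS-treated APP-PS1 library.

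Neither of the 2 receptors passed. Cd44 (ENSMUSG00000005087, chromosome 2, 102811141 to 102901665), the receptor for hyaluronan, was at 8.43, 12.4, 6.44, 11.1 and 7.07 CPM in PBS-treated APP-PS1 mice, against 7.59, 5.40, 12.4, 3.90 and 4.47 CPM in WT mice. WT replicate 3 was as high as the highest APP-PS1 mouse, and the log2 fold change was 0.47 (SE 0.31, interval -0.19 to 1.14, edgeR adjusted p = 0.591). S1pr3 (ENSMUSG00000067586, chromosome 13, 51408639 to 51422797), a receptor for the lipid sphingosine-1-phosphate, was steady at 9.62 to 11.3 CPM in APP-PS1 and 9.06 to 10.6 CPM in WT mice. Its interval of -0.09 to 0.28 around an estimate of 0.09 was the narrowest of the 10 in this comparison.

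**Figure D2:**
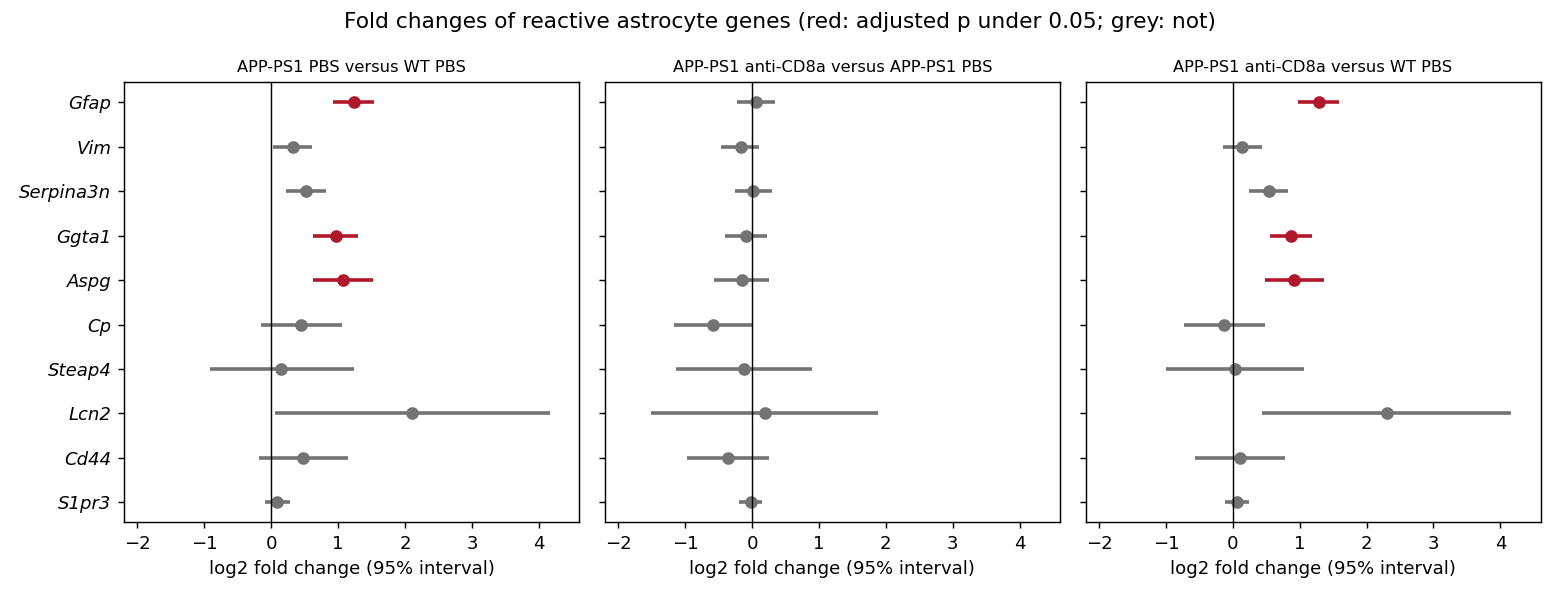
Log2 fold change (horizontal axis) of each gene (vertical axis) in the 3 comparisons, with 95% intervals as lines; red marks an adjusted p under 0.05 in edgeR. Gfap, Ggta1 and Aspg are red in both comparisons with WT mice, and no gene is red between antibody-treated and PBS-treated APP-PS1 mice.

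The animal numbers in the labels begin with 83 (3 mice per group) or 85 (2 mice per group). Within the mice numbered 83 the log2 ratio of means of PBS-treated APP-PS1 to WT mice was 1.22 for Gfap, 0.94 for Ggta1, 0.95 for Aspg and 0.52 for Serpina3n. Within those numbered 85 it was 0.97, 0.80, 1.06 and 0.18, in the same order of genes. Among mice labelled female (2 APP-PS1, 4 WT) these ratios were 1.30 for Gfap, 0.90 for Ggta1, 1.16 for Aspg and 0.47 for Serpina3n, and only 1 WT mouse was labelled male. Every PBS-treated APP-PS1 mouse lay above every WT mouse in these 4 genes, so ratios above 0 in each subset were fixed in advance.

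Genes of other reactive states were counted beside the 10. Of 4 further genes raised in most reactive astrocytes, Osmr, the oncostatin M receptor subunit, rose, at 20.2, 19.3, 20.8, 22.8 and 25.1 CPM in PBS-treated APP-PS1 mice, against 10.7, 12.3, 10.5, 12.3 and 11.3 CPM in WT mice (log2 fold change 1.03, SE 0.09, edgeR adjusted p = 1.3e-05). Its groups were far apart, and the other 3, the chemokine gene Cxcl10 (0.71), the protease inhibitor gene Timp1 (0.41) and the small heat shock gene Hspb1 (-0.17), did not pass. Of 10 tested genes linked in mice to the inflammation-induced (A1) type, counted without Ggta1 and the other members, 1 passed. This was the MHC class I gene H2-D1 (0.53, SE 0.12), while Srgn (0.57), Psmb8 (0.49) and H2-T23 (0.40) did not pass. Of 11 tested genes linked to the ischemia-induced (A2) type, 1 passed, the lipopolysaccharide co-receptor gene Cd14 (1.31, SE 0.21), which microglia also express. Of 8 other genes described in astrocytes near plaques, 1 passed, the complement gene C4b (1.25, SE 0.17), at 160 to 205 CPM in APP-PS1 and 67.1 to 99.4 CPM in WT mice. The medians of these 4 lists were 0.56, 0.47, 0.14 and 0.17, against -0.01 over all genes.

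Few genes tied to single members passed between PBS-treated APP-PS1 and WT mice. None of 10 other filament and linker genes passed or reached an unadjusted p under 0.05 (median -0.02), and none of 14 tested genes of iron and copper handling passed (median 0.01), with 1 at an unadjusted p under 0.05, Slc22a17, which encodes a receptor for lipocalin 2 (-0.25, SE 0.07, edgeR adjusted p = 0.105). None of the 4 Steap genes passed or reached an unadjusted p under 0.05. By mean level per kilobase of exon, Steap4 was the lowest of the family, at 0.299 CPM in APP-PS1 and 0.213 CPM in WT mice. Steap2 was at 2.2 and 2.25 CPM and Steap1, which the choroid plexus also makes, at 2.11 and 2.49 CPM, in the same order. The Steap1 means rested on few libraries. Not scaled to length, its median was 0.376 CPM and its highest value 9.33 CPM in APP-PS1 mice, against 0.411 and 12.6 CPM in WT mice. None of 10 genes of sphingosine-1-phosphate signalling passed, with 1 at an unadjusted p under 0.05. Per kilobase, S1pr3 (2.33 CPM in APP-PS1, 2.18 CPM in WT mice) was below 2 of the other receptors, S1pr1 (54.4 CPM in APP-PS1, 52.7 CPM in WT mice) and S1pr5 (4.34 CPM in APP-PS1, 4.64 CPM in WT mice). Among 13 tested partners of Cd44, Msn, which links membrane proteins to actin and is also strong in microglia, rose (0.43, SE 0.09, edgeR adjusted p = 0.0186). Of 17 tested inducing signals and transcription factors 2 passed, Osmr and the microglial complement gene C1qa (0.97, SE 0.15), while Il1a had 0.69 (SE 0.21, adjusted p = 0.192).

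Markers of the cell types themselves were read beside these genes. Of the 20 astrocyte markers, 1 passed between PBS-treated APP-PS1 and WT mice, the water channel gene Aqp4 (0.46, SE 0.10, edgeR adjusted p = 0.0459), and the median was 0.09. Of these 20, 14 had an estimate above 0 and 6 an unadjusted p under 0.05. Of 12 microglia markers 9 passed, all upward, led by Tyrobp (1.58), Fcrls (0.99) and C1qa (0.97), with a median of 0.60. Their summed level was 731 to 990 CPM in APP-PS1 and 487 to 563 CPM in WT libraries, with no marker at 0 in all libraries, and its part in the rise of Gfap was not tested. None of 10 endothelial, 16 mural and fibroblast, 10 oligodendrocyte, 10 neuronal, 14 choroid plexus or 8 ependymal markers passed in edgeR, and an unadjusted p under 0.05 was reached by 2 neuronal markers and by 0 of the other types listed.

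The second comparison, of antibody-treated with PBS-treated APP-PS1 mice, asked what the antibody against CD8a changes in the transgenic brain. None of the 10 genes passed. The groups overlapped for every one, while among all genes 0.954% had all treated mice higher and 0.843% all treated mice lower. In edgeR 0 of 10 genes and 0% of all genes passed, and an unadjusted p under 0.05 was reached by 1 of the 10, Cp, and by 2529 genes, or 13.3% of all. DESeq2 called 143 genes and limma-voom 0, with no member in either. Estimates were above 0 for 3 of the 10 genes and 54.1% of all genes, and the median log2 fold change was -0.11 over the 10 and 0.02 over all genes. This comparison shares its PBS-treated APP-PS1 mice with the first.

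Gfap was at 688, 873, 1310, 785 and 743 CPM in antibody-treated mice, against the 902, 692, 704, 1100 and 767 CPM of PBS-treated APP-PS1 mice. A single mouse in each group stood above the others, replicate 3 under antibody and replicate 4 under PBS, and the rest were intermingled. The estimate was 0.06 (SE 0.14, edgeR adjusted p = 0.861), and the interval of -0.23 to 0.35 leaves out a difference as large as that between genotypes. Serpina3n was at 51.0, 93.9, 90.9, 56.6 and 63.2 CPM under antibody, against 61.1 to 84.8 CPM under PBS, with an estimate of 0.02 (interval -0.26 to 0.30). The treated mice fell into 2 high ones, replicates 2 and 3, and 3 low ones, so they reached both above and below the PBS range. Ggta1 also had replicates 2 and 3 above the rest, at 11.6, 17.1, 17.9, 11.3 and 10.1 CPM under antibody, against 12.6 to 15.8 CPM under PBS, with an estimate of -0.09 (interval -0.40 to 0.22).

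Antibody replicates 2 and 3 are the 2 treated mice labelled female. The log2 ratio of means of antibody-treated to PBS-treated mice was 0.34 for Serpina3n and 0.32 for Ggta1 among mice labelled female (2 against 2) and -0.21 and -0.39 among those labelled male (3 against 3). For Gfap it was 0.22 among females and -0.05 among males. This difference between sexes was not tested, and APP-PS1 PBS replicate 1 is one of the mice labelled male. By animal number, the ratios for mice numbered 83 and then 85 were 0.09 and 0.05 for Gfap, 0.12 and -0.09 for Serpina3n, and 0.04 and -0.28 for Ggta1.

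The remaining genes did not pass either. Aspg was at 7.31, 6.25, 9.60, 5.64 and 5.41 CPM in antibody-treated mice, against 6.40 to 10.5 CPM in PBS-treated APP-PS1 mice (estimate -0.15, interval -0.57 to 0.26). Vim was at 50.9, 52.7, 54.3, 51.7 and 41.2 CPM under antibody, against 45.9 to 67.0 CPM under PBS (estimate -0.17, interval -0.46 to 0.11), with replicate 5 apart below the other treated mice. S1pr3 was at 9.39 to 11.3 CPM under antibody, against 9.62 to 11.3 CPM under PBS (estimate -0.02, interval -0.20 to 0.15). Cd44 was at 10.1, 5.74, 7.41, 4.85 and 7.36 CPM under antibody, against 6.44 to 12.4 CPM under PBS (estimate -0.36, interval -0.97 to 0.25). Steap4 was at 1.20, 1.17, 0.404, 0.860 and 0.467 CPM under antibody, against 0.496 to 2.30 CPM under PBS. The intervals of Vim and S1pr3 were narrow, while those of Steap4 (-0.12, -1.14 to 0.89) and Lcn2 (0.19, -1.51 to 1.89) spanned changes of more than 1.5-fold in either direction. Lcn2 had 15, 164, 6, 15 and 6 counts under antibody, and without replicate 2 its estimate was -1.39.

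Cp had the lowest p of the 10, at 38.9, 28.4, 21.4, 34.3 and 21.3 CPM in antibody-treated mice, against 18.2, 51.5, 55.3, 39.0 and 49.8 CPM in PBS-treated APP-PS1 mice. Of the PBS-treated mice 4 were above every treated mouse and replicate 1 was below all of them. The estimate was -0.58 (SE 0.27, interval -1.16 to 0, edgeR adjusted p = 0.374). The summed level of 16 markers of mural cells and fibroblasts ran alongside, at 728, 464, 476, 649 and 492 CPM under antibody and 463, 852, 827, 703 and 837 CPM under PBS, with no marker at 0 in all libraries. With the mean level of these markers as a covariate, a fit added after seeing the data, the estimate for Cp was -0.01 (edgeR adjusted p = 0.979). The part of these cells in the difference in Cp was not tested.

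**Figure D3:**
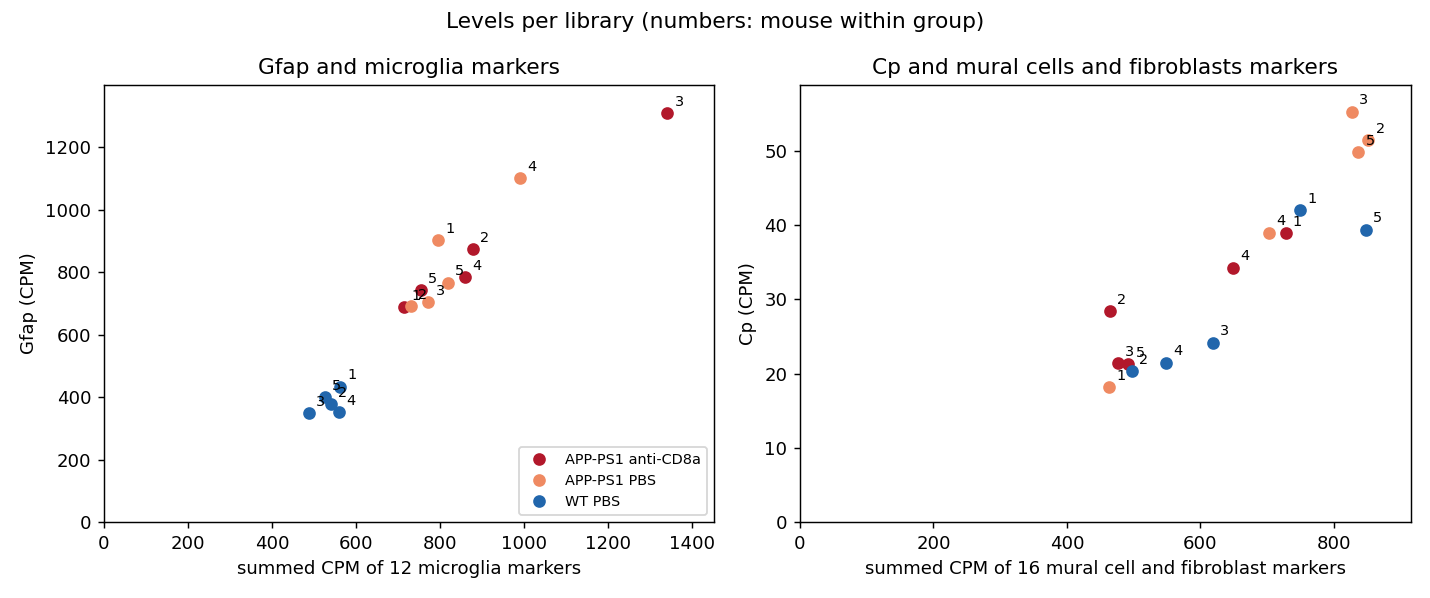
Left, Gfap (CPM, vertical axis) against the summed CPM of 12 microglia markers (horizontal axis); right, Cp against the summed CPM of 16 mural cell and fibroblast markers. Each point is 1 of 15 libraries, coloured by group and numbered by mouse. Gfap is highest in anti-CD8a replicate 3 and APP-PS1 PBS replicate 4, which also have the highest microglia sums (1340 and 990 CPM). Cp is lowest in APP-PS1 PBS replicate 1 (18.2 CPM), which has the lowest mural sum (463 CPM). It is at 28.4 CPM in anti-CD8a replicate 2, whose mural sum is almost the same (464 CPM).

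No gene of the other astrocyte lists passed in edgeR between antibody-treated and PBS-treated APP-PS1 mice, and an unadjusted p under 0.05 was reached by 1 of the 4 further genes of most reactive astrocytes, 3 of 10 A1-type genes, 2 of 11 A2-type genes and 0 of 8 genes described near plaques. Among the further genes of most reactive astrocytes, Cxcl10, a chemokine that draws T cells, was at 1.10, 1.17, 3.67, 5.02 and 2.47 CPM under antibody, against 1.45, 0.954, 0.669, 1.37 and 1.27 CPM under PBS. Antibody replicates 3, 4 and 5 were above all PBS-treated mice and the other two were inside their range, and the log2 fold change of 1.23 (SE 0.40) had an edgeR adjusted p of 0.263. Osmr had -0.17 (SE 0.08), Timp1 0.29 (SE 0.26) and Hspb1 -0.31 (SE 0.21). The median was -0.04 over the A1-type genes, -0.02 over the A2-type genes, 0.02 over the astrocyte markers and 0.15 over the microglia markers. Choroid plexus markers had a median of -1.96, with 1 Ttr-rich library under antibody and 2 under PBS, and no marker passed.

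The third comparison set antibody-treated APP-PS1 mice against WT mice, which differ in both genotype and treatment. Gfap, Ggta1 and Aspg again passed upward, so 3 of 10 genes were called, against 1.94% of all genes in either direction and 1.76% upward. An unadjusted p under 0.05 was reached by 5 of the 10, all upward, and by 12.1% of all genes, of which those upward were 6.81% of all. Groups without overlap, with all treated libraries higher, were found for 2 of the 10, Gfap and Ggta1, and for 2.16% of all genes; all treated libraries were lower for 0 of the 10 and for 0.875% of all genes. Estimates were above 0 for 9 of the 10 and for 48.9% of all genes, and the median was 0.34 over the 10 and 0 over all genes. The WT mice are those of the first comparison, so both comparisons rest on the same 5 libraries.

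Gfap was 2.44-fold higher in antibody-treated APP-PS1 mice (880 ± 250 CPM) than in WT mice (383 ± 35.5 CPM; SD, n = 5 each), with a log2 fold change of 1.29 (SE 0.14, edgeR adjusted p = 0.000127), beside 1.23 in the PBS-treated APP-PS1 mice. Ggta1 was at 13.6 ± 3.62 CPM in antibody-treated and 7.72 ± 1.20 CPM in WT mice, with a log2 fold change of 0.87 (SE 0.15, edgeR adjusted p = 0.00505), beside 0.96. All treated mice lay above all WT mice in both genes. As a percentage of the summed astrocyte markers, Gfap was at 7.26 ± 1.49% in antibody-treated and 3.39 ± 0.278% in WT mice. Aspg was at 6.84 ± 1.71 CPM in antibody-treated and 3.80 ± 1.20 CPM in WT mice (log2 fold change 0.92, SE 0.21, edgeR adjusted p = 0.0277), beside 1.07. Only 3 of the 5 treated mice exceeded the highest WT mouse, and the call was lost without anti-CD8a replicate 3 (0.75, adjusted p = 0.229) and in 8 other alternatives.

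Serpina3n had a log2 fold change of 0.54 (SE 0.14, edgeR adjusted p = 0.0616) between antibody-treated and WT mice, beside 0.52 in PBS-treated APP-PS1 mice. Of the treated mice 3 were above the highest WT mouse, and replicates 1 and 4 were inside the WT range. It passed in 6 of 23 alternatives, among them DESeq2 (adjusted p = 0.0116) and the fit without the 5 Ttr-rich libraries (0.00871). Lcn2 had 2.30 (SE 0.88, interval 0.43 to 4.16, edgeR adjusted p = 0.28), against 0.09 without anti-CD8a replicate 2. That library had 0.628 CPM of summed neutrophil markers, the lowest of its group. Only 3 of these 9 markers passed the filter on low counts, and the part of neutrophils in Lcn2 was not tested. Vim (0.14), Cp (-0.13), Steap4 (0.03), Cd44 (0.11) and S1pr3 (0.07) had estimates smaller than or equal to their standard errors.

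Within the mice numbered 83 the log2 ratio of means of antibody-treated to WT mice was 1.31 for Gfap, 0.98 for Ggta1, 0.90 for Aspg and 0.65 for Serpina3n. Within those numbered 85 it was 1.02, 0.52, 0.75 and 0.10, in the same order. All were above 0, with smaller values in the mice numbered 85, which under antibody were both labelled male. For Gfap and Ggta1, whose groups did not overlap, a ratio above 0 was fixed in advance. Of the further genes of most reactive astrocytes, Osmr (0.86, SE 0.09) and Cxcl10 (1.94, SE 0.45, edgeR adjusted p = 0.0333) rose. H2-D1 (0.73) and the immunoproteasome gene Psmb8 (0.83) passed among the A1-type genes, Cd14 (1.29) among the A2-type genes, C4b (1.37) among the genes described near plaques, and Lif (0.77), a cytokine of the interleukin-6 family, with Osmr and C1qa among the inducing signals. Microglia markers passed in 11 of 12 cases (median 0.79), with a summed level of 714 to 1340 CPM in antibody-treated and 487 to 563 CPM in WT libraries, and their part in the results above was not tested. Of the 20 astrocyte markers 0 passed, with 7 at an unadjusted p under 0.05 and a median of 0.12. No choroid plexus, ependymal, endothelial or mural and fibroblast marker passed in edgeR. Choroid plexus markers had a median of -2.37, with 5 of 14 at an unadjusted p under 0.05, and ependymal markers a median of -0.74, with 1 of 8. Endothelial markers had a median of 0.09, with 3 of 10 at an unadjusted p under 0.05, and mural and fibroblast markers a median of -0.09, with 3 of 16.

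**Figure D4:**
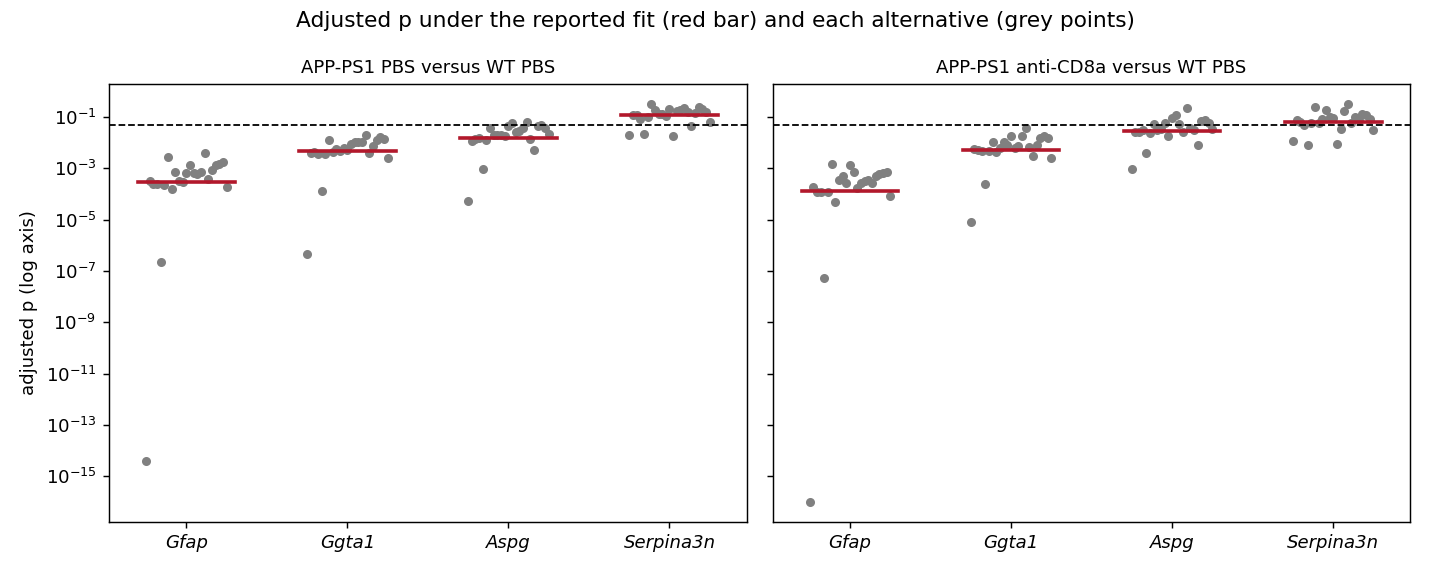
Adjusted p (vertical axis, log scale) of Gfap, Ggta1, Aspg and Serpina3n against WT mice, with PBS-treated APP-PS1 mice on the left and antibody-treated APP-PS1 mice on the right. The red bar is the value reported in the text, each grey point is 1 of 23 alternatives, and the dashed line marks 0.05; all points of Gfap and Ggta1 lie below it, whereas Aspg and Serpina3n have points on both sides.

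The 10 genes did not vary as 1 block from mouse to mouse. After the mean of each group was subtracted, log2 CPM across the 15 libraries gave Pearson's r of 0.73 between Gfap and Serpina3n, 0.71 between Gfap and Aspg, 0.69 between Gfap and Ggta1 and 0.70 between Serpina3n and Ggta1. Cp went with Vim (0.68) and not with Gfap (-0.30). Vim also went with Aspg (0.66) and Ggta1 (0.59), and less with Gfap (0.38) and Serpina3n (0.37). S1pr3 and Cd44 had r from -0.26 to 0.35 with every other gene compared. These values describe 15 libraries of 1 tissue that also differ in depth and sex, and Steap4 and Lcn2 were left out for levels near or below 1 CPM.

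**Figure D5:**
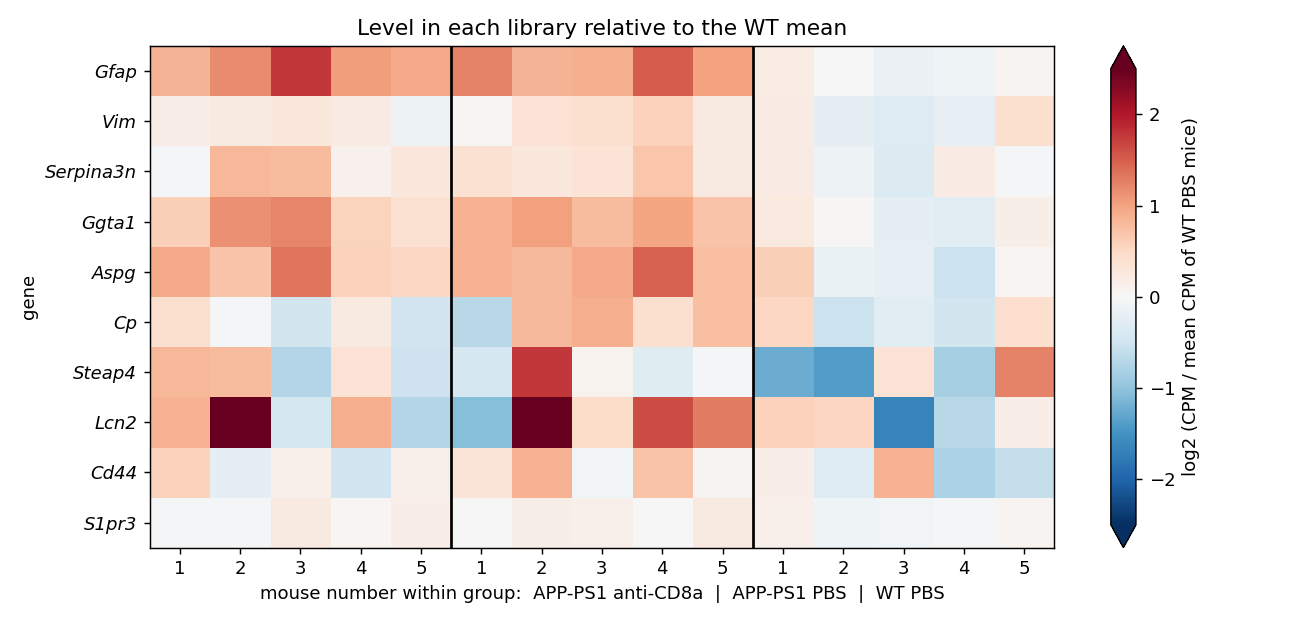
Log2 ratio of CPM in each library to the mean CPM of the 5 WT mice (colour scale, limited at 2.5 in either direction), with genes down the page and libraries across it by group. Gfap, Ggta1 and Aspg are red throughout the APP-PS1 libraries, whereas Steap4, Lcn2 and Cp change from mouse to mouse within each group.

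Among 15682 genes with a mean of at least 1 CPM, those whose pattern across libraries was most like that of Gfap after subtracting group means included Laptm5 (r = 0.96), Hcls1 (0.94), C1qb (0.94) and Ptpn6 (0.94), with Spearman's rho of 0.85 to 0.92. Laptm5, Hcls1 and Ptpn6 are known from blood cells and microglia, and C1qb is a complement gene of microglia. Without anti-CD8a replicate 3 and APP-PS1 PBS replicate 4, the libraries farthest from the middle in Gfap, r over the other 13 was 0.79 to 0.87. For Serpina3n they were Chst2 (0.92), Pik3cg (0.91), Thbs4 (0.90), Golm1 (0.90) and Nfatc2ip (0.90), and for Vim they were Plscr2 (0.94), Aaed1 (0.89), Fcgrt (0.89), Serpinf1 (0.87) and Nr1h3 (0.86). The 3 sets of neighbours had no gene in common.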

How the data were processed

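Each library was made from poly(A) RNA of 1 mouse with a stranded kit, per the labels' protocols. The authors deposited unnormalized counts of reads for 46078 genes in 15 libraries. The submitters' processing notes name FastQC, Bowtie2 2.2.2, HTSeq 0.11.2, DESeq2 and build GRCm38. Reads across exon junctions can be lost, since Bowtie2 aligns without splicing. Annotation release and strand setting were not given in the sources used here. HTSeq's summary lines name no gene and were left out of all tests; 19.966 to 25.854% of reads per library had no feature.

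CPM was calculated from those counts with edgeR's TMM factors, and symbols and places were taken from GENCODE M21. Tests were glmQLFTest of edgeR 4.0.16 (R 4.3.3), two-sided, on the 18974 genes that filterByExpr kept. The model held group and labelled sex for all 15 libraries, with 11 residual degrees of freedom, and p-values were adjusted over all genes by the method of Benjamini and Hochberg (threshold 0.05). Standard errors were derived from the F statistic. The fit was also run on simulated counts, which held no differences in sex or tissue content between libraries. No result above rests on that run. Alternatives were DESeq2 1.42.0, limma-voom (limma 3.58.1), other size factors, filters and covariates, the compared groups alone, and libraries left out. All 10 genes are named in every comparison, and from each other list up to 4 genes of smallest p, or all of a list of 5 or fewer; S1pr and Steap relatives are named by level, and for Gfap, Vim and Serpina3n the 5 genes most like each. Some genes that this rule selects are not reported here. The genes, lists and tests were chosen with earlier results of these data known.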

Additional observations from a re-analysis of the deposited data

Results flagged for a closer look

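In groups of 5 mice, the gap between an extreme library and its nearest neighbour was compared with the whole range of the group, with 0.71 as the critical share; chance passes it in about 1 in 20 groups, and 30 groups were examined. It was passed in 4. Lcn2 was highest in anti-CD8a replicate 2, at 4.68 CPM with the next mouse at 0.516 CPM (gap 0.922 of the range). Steap4 was highest in APP-PS1 PBS replicate 2, at 2.3 CPM with the next at 0.711 CPM (0.88). This library was also among the 5 rich in Ttr, and the part of choroid plexus tissue in its Steap4 level was not tested. Aspg was highest in APP-PS1 PBS replicate 4, at 10.5 CPM with the next at 7.32 CPM (0.776). Vim was lowest in anti-CD8a replicate 5, at 41.2 CPM with the next at 50.9 CPM (0.741).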

How the results depend on the processing

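Gfap and Ggta1 passed against WT mice in all 23 alternatives, with log2 fold changes of 1.12 to 1.53 and 0.85 to 1.20 in PBS-treated and 1.10 to 1.47 and 0.75 to 1.05 in antibody-treated APP-PS1 mice. Aspg passed in 21 of 23 (adjusted p up to 0.064) and 14 of 23 (up to 0.229), and Serpina3n in 4 of 23 (0.0188 to 0.333) and 6 of 23 (0.00841 to 0.33). The number of the 10 genes that passed was 2 to 4 in both comparisons with WT mice and 0 in every alternative between antibody-treated and PBS-treated APP-PS1 mice.

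Over all genes, PBS-treated APP-PS1 against WT mice gave 195 calls, 361 in DESeq2 (280 higher, 81 lower), 115 without the sex covariate, 98 (all higher) without the 5 Ttr-rich libraries and 145 to 253 when each library was left out in turn (253, of which 134 higher and 119 lower, without APP-PS1 PBS replicate 4). Antibody-treated against PBS-treated APP-PS1 mice gave 0, with 143 in DESeq2 (70 higher, 73 lower), 13 without a filter on low counts, 1 in the compared groups alone and 0 to 2 when each library was left out. Antibody-treated APP-PS1 against WT mice gave 369, 221 in the compared groups alone and 199 without the Ttr-rich libraries. It gave 140 to 441 when each library was left out, the lowest without anti-CD8a replicate 3, and up to 533 over all 23 alternatives. The causes were not tested.

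Only estimates that had not passed changed sign. Between antibody-treated and PBS-treated APP-PS1 mice these were Serpina3n (-0.02 with the choroid plexus covariate, -0.03 with the mural and fibroblast covariate, -0.06 without the Ttr-rich libraries), Steap4 (0.33, 0.20 and 0.29 in the same settings), S1pr3 (0.01 with the mural and fibroblast covariate, 0.06 without the Ttr-rich libraries), Gfap (-0.06 without the Ttr-rich libraries) and Lcn2 (-0.04 in limma-voom). Against WT mice they were, for antibody-treated mice, Steap4 (-0.02 in limma-voom and with sex taken from Xist and Y-linked genes, -0.07 with the animal number series added) and Cp (0.08 with the choroid plexus and 0.15 with the mural and fibroblast covariate), and for PBS-treated mice Steap4 (-0.03 in the compared groups alone). With each library left out in turn, the ranges between antibody-treated and PBS-treated mice were -0.08 to 0.14 for Gfap, -0.07 to 0.10 for Serpina3n, -0.54 to 0.41 for Steap4, -1.39 to 1.26 for Lcn2 and -0.07 to 0.01 for S1pr3. Between antibody-treated and WT mice they were -0.53 to 0.55 for Steap4, -0.11 to 0.41 for Cd44 and -0.21 to 0.04 for Cp, and between PBS-treated APP-PS1 and WT mice -0.32 to 0.71 for Steap4. The mural and fibroblast covariate was added after seeing the data.

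No paired analysis was possible because the labels give each mouse its own animal number and share no replicate number between groups. Lcn2, with as few as 3 counts in a library, and Steap4, mostly below 1 CPM, were limited by depth and have no value at a mean of at least 1 CPM.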
